A study of Mus musculus with 6 samples.

Results

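The flavin-containing monooxygenases (FMOs) of mouse liver described here are the 4 genes Fmo1, Fmo2, Fmo4 and Fmo5, taken by symbol from 55335 genes in the deposited FPKM table. All 4 were among the 9908 genes tested, those with at least 1 FPKM (a fragment count adjusted for gene length and library size) in at least 3 of the 6 libraries. The libraries came from liver of wild-type C57BL/6 mice. The 3 control libraries are from mice on 0 mg per kg per day of cadmium chloride (CdCl2), and the 3 cadmium libraries from mice given 20 mg per kg per day by gavage, both for 90 days. Mice were male and 6 to 8 weeks old per the labels, 6 in each group, and how these 6 map to 3 libraries is not stated, so p-values measure the spread between libraries. Each library holds the input fraction of an m6A immunoprecipitation, which the labels describe as RNA fragments the antibody did not bind. A change in RNA level therefore cannot be told apart from a change in the share bound by the antibody.

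FMOs are enzymes of the endoplasmic reticulum that hold FAD, take electrons from NADPH and pass an oxygen atom to nitrogen or sulfur atoms of drugs, toxins and dietary amines. Unlike microsomal cytochromes P450 they need no separate reductase. FMO1 oxidises many amines and thioethers and converts hypotaurine to taurine, and FMO2 is the main form of lung in many mammals. FMO4 is a minor form of poorly known substrates. FMO5 is abundant in liver, acts on few classic FMO substrates and inserts oxygen beside ketones.

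The libraries do not match the male label. Xist, which coats the silenced X chromosome of female cells, was at 19.7 to 35.5 FPKM in all 6, the 4 Y-linked genes examined summed to at most 6.76e-05 FPKM, and the male-specific Cyp4a12a was listed at 0 in the control libraries and at up to 0.0202 FPKM in cadmium. All 14 female-biased genes of a fixed list passed the filter against 5 of 10 male-biased ones. Some sex-biased genes also moved with the groups. Of the 14 female-biased genes 2 were called higher in cadmium, and of the 5 tested male-biased genes 2 were called lower. Over all tested genes 7.86% were called higher and 1.82% lower. In these 2 lists voom on recovered reads also called 2 higher and 2 lower, where it called 3.84% of all tested genes higher and 4.94% lower. With the replicate number as a block 2 and 1 were called, against 1.86% and 0.646% of all tested genes. The list medians were log2 fold changes of 0.23 and 0.05, against 0.09 for all tested genes. Uncalled genes went both ways, such as the female-biased Cyp2a4 at -0.39 and the male-biased Cyp2d9 at 0.54. A1bg, a female-biased plasma protein gene, was at 0.925 ± 0.422 FPKM in controls and 25.0 ± 11.2 in cadmium (SD, n = 3, limma adjusted p = 0.00884). Sult3a1, a female-biased sulfotransferase, was at 7.78 ± 2.38 and 34.7 ± 7.92 FPKM (limma adjusted p = 0.00843), and Mup7, a male-biased urinary protein gene, at 3.37 ± 1.07 and 0.871 ± 0.461 FPKM (limma adjusted p = 0.0371). The part of these differences in the FMO results was not tested. Recovered depth was 42115960 to 68587128 reads per library. Control replicate 1 and cadmium replicate 2 stood apart: albumin took 2.87% and 2.91% of their reads against 4.89% to 5.06% in the others, and mitochondrial rRNA 0.265% and 0.277% against 0.782% to 1.18%. Results are given with and without this pair where it matters. The liver label was borne out by hepatocyte markers, which summed to 16635 to 25563 FPKM over 9 genes, while lung epithelial markers summed to at most 0.311 FPKM and pancreatic acinar markers to at most 0.0219 FPKM.

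Fmo2, Fmo4 and Fmo5 are alike near the start of the coding sequence, where Fmo1 was not compared. The first 90 coding bases of Fmo2, Fmo4 and Fmo5 are printed from GENCODE M21 transcripts with the glycine-rich stretch that binds FAD in capitals. It spans codons 9 to 14 in Fmo2 and Fmo4 and codons 10 to 15 in Fmo5.
Fmo2: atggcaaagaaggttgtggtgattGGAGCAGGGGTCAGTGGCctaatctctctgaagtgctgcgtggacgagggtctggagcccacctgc
Fmo4: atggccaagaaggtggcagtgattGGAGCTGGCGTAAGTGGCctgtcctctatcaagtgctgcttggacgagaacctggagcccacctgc
Fmo5: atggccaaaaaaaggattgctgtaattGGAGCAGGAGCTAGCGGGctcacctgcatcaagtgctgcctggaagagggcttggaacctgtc

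Over the 60 bases that begin with this motif, Fmo2 and Fmo4 share 48, while Fmo5 shares 43 with each of them. Over whole coding sequences, identity between members ran from 61.6% (Fmo1 and Fmo5) to 65.1% (Fmo2 and Fmo4). The longest stretch that any 2 members share exactly in these transcripts was 24 bases, between Fmo1 and Fmo5, while reads were 150 bases long per the labels. No shared stretch was as long as a read.

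Fmo1, Fmo2 and Fmo4 lie with Fmo6 in a cluster on the minus strand of chromosome 1, between 162793188 and 162937515 in mm10. Fmo4 (ENSMUSG00000026692) spans 162793188 to 162813972, Fmo1 (ENSMUSG00000040181) 162829561 to 162866610 and Fmo2 (ENSMUSG00000040170) 162874317 to 162898726. Fmo5 (ENSMUSG00000028088) stands alone on the plus strand of chromosome 3, from 97628804 to 97655282. Each member has 8 coding exons in the transcript with the longest coding sequence, and none overlaps another annotated gene.

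Fmo5 and Fmo2 fell to under 48% of their control level in cadmium, while Fmo1 stayed within 2% of its control mean and Fmo4, the least abundant member, had a mean 50.1% higher that did not pass the test. Both called members were called lower. Among all 9908 genes 9.68% were called at a limma adjusted p of 0.05, 1.82% lower and 7.86% higher, and 33.6% had groups that did not overlap.

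**Figure D1:**
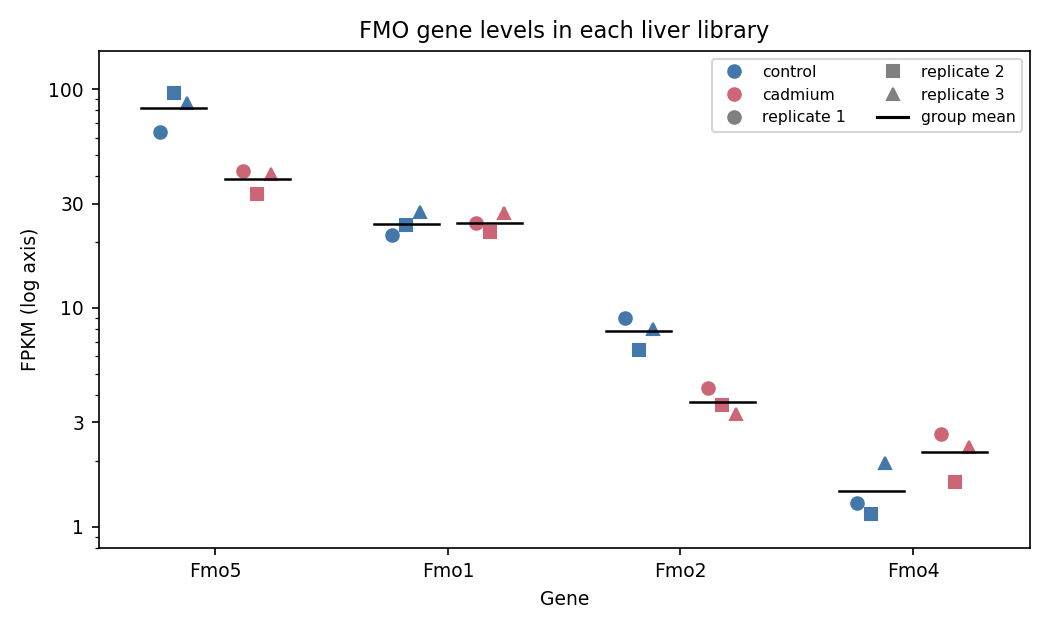
FPKM (log axis) of the 4 members in each library, with symbols for replicates and black bars for group means (n = 3). Fmo5 and Fmo2 have groups that do not overlap, at 63.7 to 95.7 against 33.4 to 42.3 FPKM and 6.44 to 9.02 against 3.27 to 4.31 FPKM.

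Fmo5 was the most abundant member. It was at 63.7, 95.7 and 86.6 FPKM in control replicates 1 to 3 and at 42.3, 33.4 and 40.9 FPKM in cadmium replicates 1 to 3. Every cadmium library was below every control library, and control replicate 1 was the lowest control. The mean went from 82.0 ± 16.5 to 38.8 ± 4.80 FPKM (SD, n = 3), 2.11-fold lower, with a log2 fold change of -1.04 (SE 0.18, limma adjusted p = 0.0187). These values rest on 12503 to 33245 recovered reads per library. With the replicate number, which the labels give as the batch, as a block the adjusted p was 0.0668. Within batches 1, 2 and 3 the log2 difference was -0.58, -1.49 and -1.06, lower in cadmium in all 3. The call was lost without control replicate 3 (adjusted p = 0.0604), cadmium replicate 1 (0.0509) or cadmium replicate 3 (0.0740), and without the pair that stood apart it was kept (0.0158).

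Fmo2, with a control mean of 7.83 ± 1.30 FPKM and a cadmium mean of 3.73 ± 0.53 FPKM (SD, n = 3), was much less abundant than Fmo5. It was at 9.02, 6.44 and 8.04 FPKM in control replicates 1 to 3 and at 4.31, 3.61 and 3.27 FPKM in cadmium replicates 1 to 3. The groups did not overlap, and control replicate 1, the lowest control for Fmo5, was the highest control for Fmo2. The ratio of means was 2.10-fold lower in cadmium, with a log2 fold change of -0.90 (SE 0.14, limma adjusted p = 0.0133), on 1265 to 3596 reads per library. Batches 1, 2 and 3 gave log2 differences of -0.91, -0.69 and -1.08. The call was kept with the replicate block (adjusted p = 0.0449), which called 0.646% of all genes lower, and without the pair that stood apart (0.0422). It was lost without cadmium replicate 3 (0.0652).

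Fmo1, the broad-range amine and thioether oxidase, lay between these genes in level. Its controls were at 21.6, 24.0 and 27.3 FPKM and its cadmium libraries at 24.3, 22.3 and 27.0 FPKM in replicate order. The groups overlapped almost entirely. The means were 24.3 ± 2.90 and 24.6 ± 2.38 FPKM (SD, n = 3), with a log2 fold change of 0.02 (SE 0.13, limma adjusted p = 0.949). Its sign turned with the scaling and with single libraries, from -0.17 with voom on recovered reads to 0.10 without control replicate 3, and it was not called under any of the 17 alternatives.

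Fmo4 had the lowest level, near the filter. It was at 1.28, 1.14 and 1.95 FPKM in control replicates 1 to 3 and at 2.64, 1.61 and 2.31 FPKM in cadmium replicates 1 to 3, on 260 to 683 reads per library. Control replicate 3 lay above cadmium replicate 2, so the groups overlapped. The log2 fold change was 0.38 (SE 0.16, limma adjusted p = 0.191, and 0.153 with the block), positive within all 3 batches at 0.68, 0.28 and 0.17. No setting brought it past the threshold, and the adjusted p ran from 0.10 to 0.415.

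In both groups the order of levels was Fmo5, Fmo1, Fmo2, Fmo4, and no member's range met that of the next in either group. The distance between Fmo5 and Fmo1 was much smaller in cadmium, where the lowest Fmo5 library was at 33.4 FPKM and the highest Fmo1 library at 27.0. The 4 members summed to 95.5, 127 and 124 FPKM in control replicates 1 to 3 and to 73.6, 60.9 and 73.5 FPKM in cadmium replicates 1 to 3, with no overlap (exact permutation test, two-sided, p = 0.10). That is the smallest p that 3 against 3 libraries allow. Fmo5 made up 70.6 ± 4.32% of the sum in controls and 56.0 ± 1.37% in cadmium (SD, n = 3). Fmo1 made up 21.2 ± 2.03% and 35.5 ± 2.10%, and Fmo4 1.27 ± 0.34% and 3.12 ± 0.48% (exact p = 0.10 for each of the 3). The share of Fmo2 was 7.0 ± 2.2% and 5.4 ± 0.84% (exact p = 0.40).

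Whether members differed in their change was tested on the difference of log2(FPKM + 1) between 2 members within each library, over 6 pairs. In 5 pairs the control and cadmium libraries did not overlap (exact permutation p = 0.10, the smallest possible, and 0.12 adjusted over the 6 pairs). The 6 pairs reuse the same 4 genes, so they are not independent. Among single tested genes 33.6% had groups that did not overlap, and the share over other pairs of genes was not computed. The widest gap was between Fmo4 and Fmo5: Fmo4 minus Fmo5 was -5.07 ± 0.37 in controls and -3.65 ± 0.08 in cadmium (SD, n = 3), a shift of 1.42. Fmo1 minus Fmo5 shifted by 1.06, from -1.70 ± 0.23 to -0.64 ± 0.12, and Fmo1 minus Fmo2 by 0.91, from 1.52 ± 0.31 to 2.44 ± 0.25. Fmo2 minus Fmo5 was the pair that overlapped, at -3.22 ± 0.51 and -3.07 ± 0.20 (exact p = 0.70). The 2 genes that fell thus did not differ detectably in the size of their fall, with libraries spreading by 0.39 on this scale (pooled SD).

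**Figure D2:**
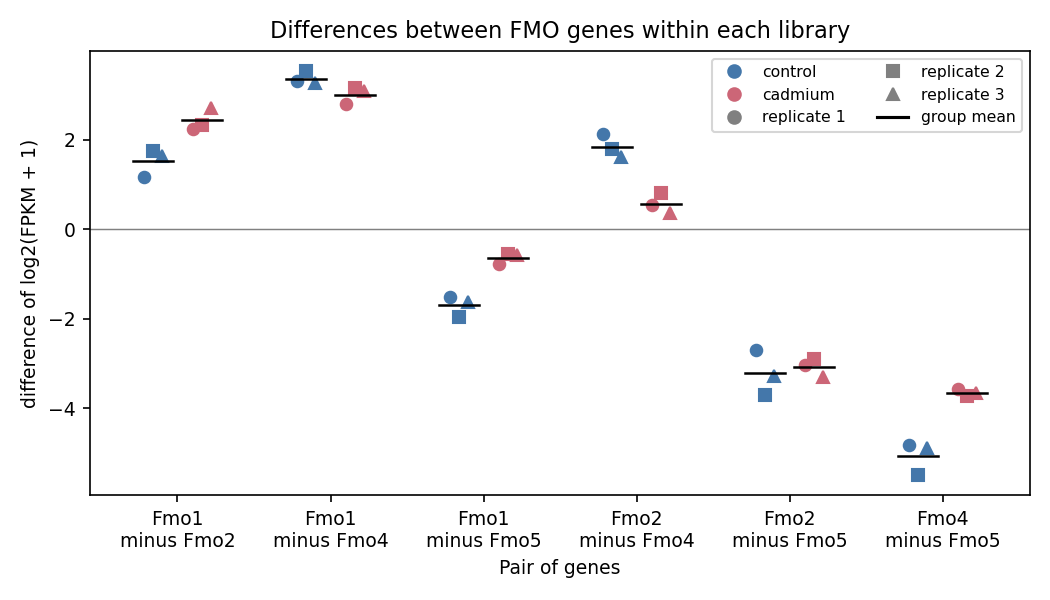
Difference of log2(FPKM + 1) between the members of each pair in every library, with symbols for replicates and black bars for group means (n = 3). Control and cadmium points are apart in 5 pairs and overlap for Fmo2 minus Fmo5.

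Both falls kept their direction under all 17 alternative settings. Scaling matters for the balance of all genes: genes as a whole had a median log2 fold change of 0.09, with 18.8% of called genes lower. Quantile normalization moved these to -0.01 and 46.2%, trimmed mean scaling gave 43.9% lower, upper quartile scaling 31.4% and voom 56.3%. The deposited log2 values gave a median of -0.06 and 56.4% lower. Relative to the median of all tested genes in the same setting, Fmo5 lay at -1.03 to -1.28 and Fmo2 at -0.84 to -1.19 over all settings. In the deposited log2 values, fitted the same way, the log2 fold changes were -1.24 for both genes (limma adjusted p = 0.00336 for Fmo5 and 0.00305 for Fmo2), where 4.98% of genes were called lower. The authors' deposited table gives an FDR of 8.24e-13 for Fmo5, 3.10e-13 for Fmo2, 0.724 for Fmo1 and 0.366 for Fmo4. Of the 34352 genes in the authors' deposited table, 6.87% had an FDR under 0.05, with 3.15% lower.

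**Figure D3:**
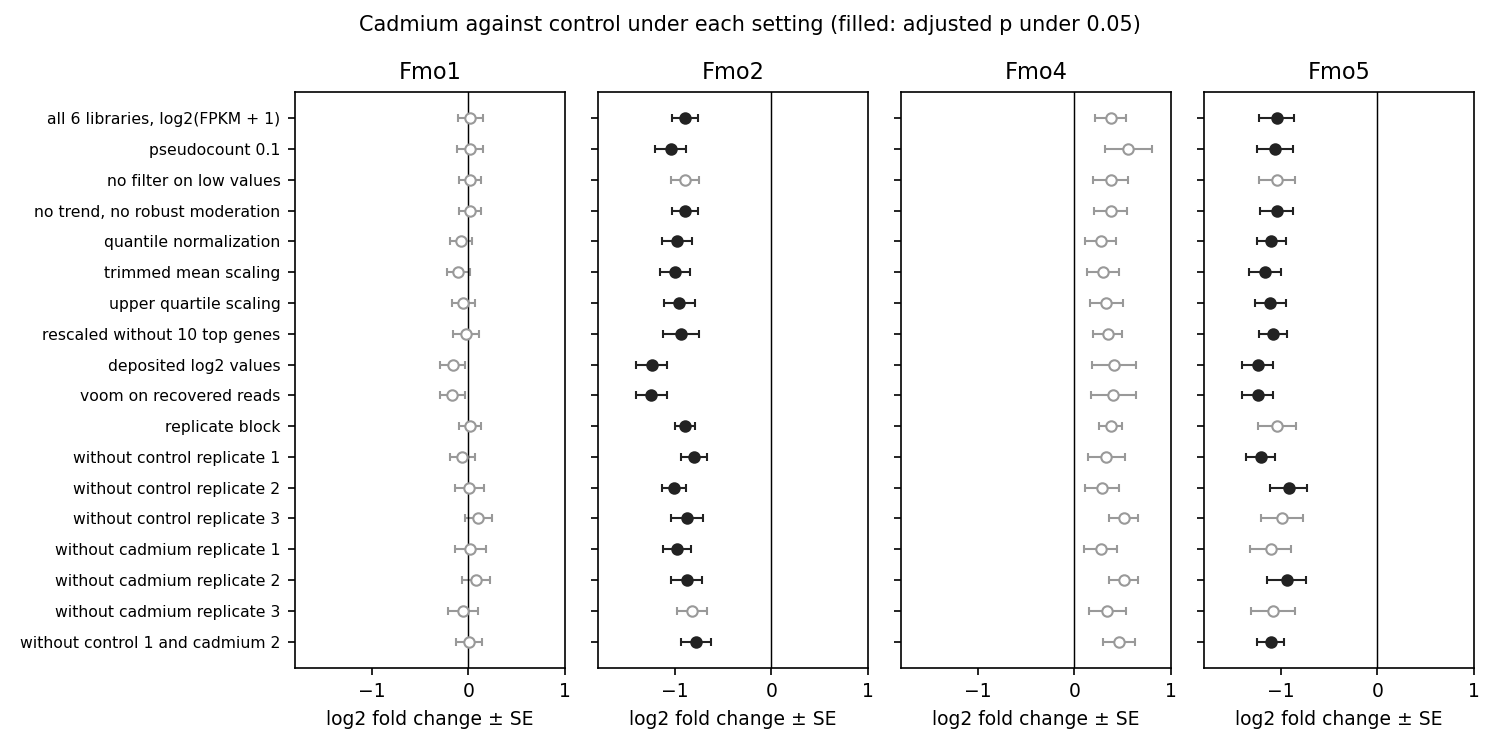
Log2 fold change of cadmium against control for each member under each setting, with bars of 1 SE and filled points where the limma adjusted p was under 0.05. Fmo2 stayed between -0.78 and -1.25 and Fmo5 between -0.92 and -1.24, Fmo1 lay around 0, and Fmo4 was positive and not called in each row.

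Among tested genes, Fmo5 had the 34th largest and Fmo2 the 56th largest decrease of the 180 called lower. Larger decreases included that of Por.

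**Figure D4:**
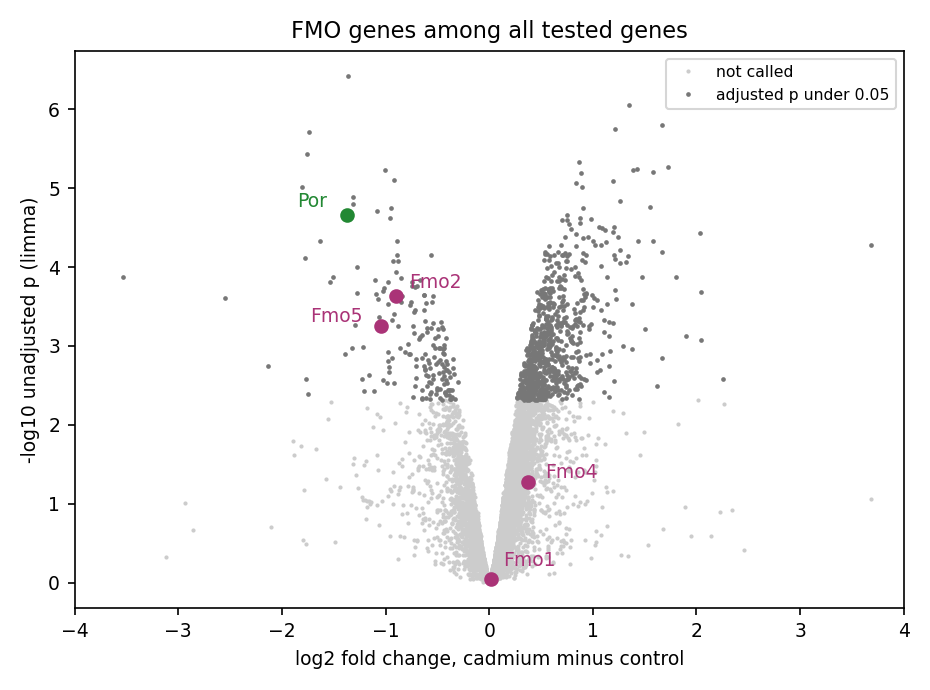
Log2 fold change against -log10 of the unadjusted limma p for tested genes, with members in purple and Por in green. Fmo2 and Fmo5 sit among the called decreases, Fmo4 and Fmo1 below the threshold, and 6 genes lie beyond the plotted range.

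Of the other family genes examined, Fmo6 was represented by 6 reads in control replicate 1 and 0 reads in the other libraries, and Fmo9 was listed at 0 in all 6.

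The genes that flank the family were not called, where 9.68% of all tested genes were. The flanking genes were taken after the values were seen, as the nearest 2 tested protein-coding genes outside the family on each side. Some lie far off: Kifap3 begins at 163779583 on chromosome 1, and Acp6 ends at 97177299 on chromosome 3. Beside the chromosome 1 cluster Vamp4, Prrc2c, Kifap3 and Scyl3 had log2 fold changes of 0.12 to 0.24 (limma adjusted p from 0.145 to 0.561). Beside Fmo5, Chd1l and Pde4dip were at -0.06 each, Sec22b at 0.05 and Acp6 at 0.19 (adjusted p from 0.119 to 0.797). Within the cluster itself Fmo2 fell while Fmo1, the adjacent gene, stayed level.

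Because Fmo2 and Fmo5 both fell, the sequence upstream of their starts was read from RefSeq promoter windows (GRCm38.p6). These 5′ to 3′ stretches lie before the annotated exons of each gene, and capitals would mark motif matches, of which there were none.
Fmo2, chr1:162898759-162899008, minus strand: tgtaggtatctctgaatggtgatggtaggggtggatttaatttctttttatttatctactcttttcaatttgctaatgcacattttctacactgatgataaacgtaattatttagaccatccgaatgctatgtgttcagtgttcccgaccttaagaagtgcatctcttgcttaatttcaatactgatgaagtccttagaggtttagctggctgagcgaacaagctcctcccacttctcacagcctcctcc
Fmo5, chr3:97628769-97628803, plus strand: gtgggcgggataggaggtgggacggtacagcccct

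Fmo1 had no promoter window. That of Fmo4, 162812500 to 162812799, lies inside the gene, with 0 bases upstream of its annotated exons. That of Fmo5, 97628769 to 97629068, has 35 bases upstream of its annotated exons, and the rest lies inside the gene. Fmo2 had a further window, 162898444 to 162898743, which is not printed. Across the full 300-base windows of Fmo2, Fmo4 and Fmo5, both strands were searched for 5 motifs. They were the E-box CACGTG, the D-box TTATGTAA, the dioxin response core GCGTG, the antioxidant response motif TGACNNNGC and the metal response motif TGCNCNC. The last is a loose form that allows any base at each N. None of the 5 occurred in these windows. Of all 32851 promoter windows 7.15%, 0.938%, 32.4%, 12.4% and 51.0% held them, in that order. In the transcripts themselves GGAC, the core letters of most m6A sites, occurred on the sense strand 9 times in Fmo5 (1.73 per kb), 14 times in Fmo2 (3.44 per kb), 6 times in Fmo1 (2.51 per kb) and 15 times in Fmo4 (5.59 per kb). Of 22527 coding genes 9.47% had fewer per kb than Fmo5, 20.7% fewer than Fmo1, 39.2% fewer than Fmo2 and 77.1% fewer than Fmo4.

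The genes whose pattern over the 6 libraries was most like that of Fmo5 were Coa6, an assembly factor of cytochrome c oxidase (Pearson r = 0.999), Gda, the guanine deaminase (0.989), and CT030161.1 (0.988). For Fmo2 they were Map2k6, a kinase upstream of p38 (r = 0.986), Mtss1 (0.980) and Ivns1abp (0.976). Between Fmo2 and Fmo5 r was 0.817, which placed Fmo5 at rank 278 among tested genes by likeness to Fmo2. For Fmo4 the most alike were Sc5d, an enzyme of cholesterol synthesis (0.987), Pum2 (0.986) and Myl9 (0.985), and for Fmo1 Alg8 (0.986), Nme1 (0.981) and Krtcap2 (0.978). These describe 6 libraries that share the group difference.

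Around the FMO reaction most genes were not called, as was so for all tested genes, of which 9.68% were called. Over all tested genes 27% passed an unadjusted p of 0.05, and voom called 4.94% lower. These 3 shares are the ones to read the list counts against. Of 5 tested microsomal electron carriers 0 were called higher and 1 lower, and the median log2 fold change of 0.10 was near the 0.09 of all genes. The 1 was Por, the flavoprotein that passes electrons from NADPH to cytochromes P450 and shares the use of FAD and NADPH with FMOs. It was at 146, 154 and 142 FPKM in control replicates 1 to 3 and at 48.5, 65.4 and 56.7 FPKM in cadmium replicates 1 to 3, without overlap. Its log2 fold change was -1.37 (SE 0.15, limma adjusted p = 0.00739, and 0.0380 with the block), and the call was kept without any 1 library.

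Of 10 genes supplying FAD and NADPH 0 were called, also with voom on recovered reads, and 3 passed an unadjusted p of 0.05, a share near that of all genes. H6pd, which makes NADPH inside the endoplasmic reticulum, was at 51.9 ± 2.23 FPKM in controls and 68.2 ± 10.4 in cadmium (SD, n = 3, limma adjusted p = 0.139). G6pdx, its cytosolic counterpart, was at 0.993 ± 0.187 and 1.84 ± 0.60 FPKM (limma adjusted p = 0.0947).

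Sulfur amino acid and taurine metabolism, which includes the step of FMO1, had 0 of 14 tested genes called and 4 at an unadjusted p of 0.05, again near the share of all genes. Voom called 1 lower, Ahcy, which hydrolyses adenosylhomocysteine. Cdo1, the cysteine dioxygenase at the head of taurine synthesis, was at 439 ± 71.9 and 631 ± 41.2 FPKM (SD, n = 3, limma adjusted p = 0.107). Cbs, which makes cystathionine, was at 36.5 ± 4.41 and 48.4 ± 1.09 FPKM (limma adjusted p = 0.0870), and Ahcy at 417 ± 32.2 and 292 ± 55.1 FPKM (limma adjusted p = 0.122).

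Among 19 other phase I enzymes that are not cytochromes P450, 0 were called and 5 passed an unadjusted p of 0.05, near the share of all genes, 1 of them higher and 4 lower. Voom called 4 of the 19 lower, Aldh3a2, Xdh, Cbr1 and Adh1, where it called 4.94% of all tested genes lower. Adh1, the main liver alcohol dehydrogenase, was at 657 ± 15.1 FPKM in controls and 491 ± 4.47 in cadmium (SD, n = 3, limma adjusted p = 0.121), and Aldh3a2, a fatty aldehyde dehydrogenase, at 62.0 ± 10.5 and 42.1 ± 9.98 FPKM (limma adjusted p = 0.123). Pon3, a lactonase, was at 9.62 ± 1.66 and 12.5 ± 1.19 FPKM (limma adjusted p = 0.143). The median log2 fold change of the list was 0.02.

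Of 15 factors tied to control of FMO genes 0 were called and 5 passed an unadjusted p of 0.05, of which 1 was higher and 4 lower. Voom called 3 of the 15 lower, Nr1i3 (CAR), Nr1i2 (PXR) and Nr1h4 (FXR), against 4.94% of all tested genes. In FPKM Nr1i2 was at 16.3 ± 1.12 and 12.3 ± 0.64 (SD, n = 3, limma adjusted p = 0.0568) and Nr1i3 at 33.3 ± 7.93 and 21.5 ± 3.65 (limma adjusted p = 0.0961). Dioxin, acting through the receptor Ahr, is known to raise Fmo2 in mouse liver. Of 8 listed AHR target genes 4 were tested, and Cyp1a1, Cyp1b1, Ahrr and Aldh3a1 fell below the filter. Among the 4 tested, 0 were called, 0 passed an unadjusted p of 0.05 and voom called 0. Over all tested genes 9.68% were called. The part of AHR in the fall of Fmo2 was not tested. Ugt1a6a, a glucuronosyltransferase, was at 29.3 ± 8.96 and 25.4 ± 2.60 FPKM (SD, n = 3, limma adjusted p = 0.666).

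**Figure D5:**
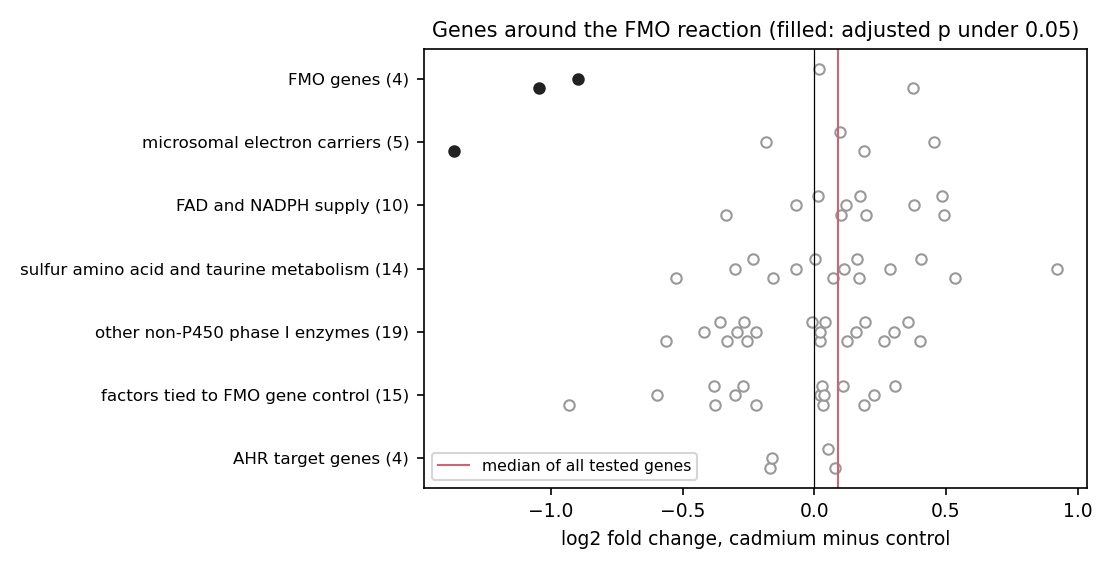
Log2 fold changes of the FMO genes and of 6 lists around their reaction, 1 point per tested gene, filled where the limma adjusted p was under 0.05, with the median of all tested genes as a red line. Filled points are Fmo2, Fmo5 and Por.

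Some markers of other liver cells moved with the groups. Stellate and fibroblast markers were called higher in 8 of 9 tested genes, and the list summed to 15.0 to 23.0 FPKM in controls and 36.7 to 41.3 in cadmium. Of 8 tested Kupffer cell and macrophage markers 3 were called higher, Adgre1, Cd68 and Lyz2. That list summed to 34.9 to 58.4 FPKM in controls and 69.0 to 80.6 in cadmium. Its uncalled tested genes went both ways, with log2 fold changes from -0.19 for Vsig4 to 0.88 for Cd5l. Timd4, which was not tested, was at 0.568 ± 0.165 FPKM in controls and 0.0913 ± 0.0216 in cadmium (SD, n = 3). Endothelial markers were called higher in 2 of 8, and 7.86% of all tested genes were. With the replicate block, which called 1.86% of all genes higher, the stellate, Kupffer and endothelial counts were 4, 2 and 0. With voom, which called 3.84% higher, they were 7, 3 and 1. Of 9 hepatocyte markers 1 was called, Fgb, a fibrinogen chain, which was higher, and 0 were called with the block or with voom. The part of cell composition in the falls of Fmo2 and Fmo5 was not tested, and in bulk tissue fewer cells of a type and less RNA per cell cannot be told apart.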

How the data were processed

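Tools named in the submitters' processing notes are STAR 2.7.1a, cutadapt 1.1.8, MACS2 2.1.1, DESeq2 and SAMtools 1.3.1, on mm10, without their roles. The read counter is not given in the sources used here. The authors deposited FPKM per gene and library, and a second table with log2 values per library and the authors' log2 fold change, p-value and FDR. Undoing log2 and subtracting 1 gave whole multiples of 1 step per library for 100% of values above 0 (within 0.05 of a read), so the deposited log2 values are size-scaled read counts, and reads were recovered from them.

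Genes reaching 1 FPKM in 3 or more libraries were fitted with limma 3.58.1 (R 4.3.3) on log2(FPKM + 1), with variance trend and robust moderation, two-sided, adjusted by Benjamini-Hochberg over 9908 genes with a threshold of 0.05. Fold changes on this scale understate those of low genes. The script was tested on simulated data. Single values were compared by exact permutation (scipy 1.17.1). Alternatives covered pseudocount, filter, 4 scalings, the deposited log2 values, voom on recovered reads, the variance model, the block and libraries left out.

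The labels give the replicate number as batch, which pairs the libraries. Deviations from group means correlated at -0.21, -0.23 and -0.02 between same-numbered libraries.

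Genes named were the members, Fmo6 and Fmo9, up to 3 genes of smallest p per metabolic list, the 3 genes most like each member (passing over Gm and Rik names), and list sums for cell types. Some items are not reported here. Members and lists were chosen with earlier results of these data known. Coordinates are from GENCODE M21, which held 99.7% of the identifiers.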

Additional observations from a re-analysis of the deposited data

How the results depend on the processing

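Fmo2 and Fmo5 were lower in cadmium under all 17 alternatives. Without a filter on low values 37 genes were called in place of 959, and the adjusted p became 0.0876 for Fmo2 (log2 fold change -0.90) and 0.0954 for Fmo5 (-1.04). Then 34351 genes were tested, and the unadjusted p also rose, from 0.000236 to 0.00151 for Fmo2 and from 0.000566 to 0.00252 for Fmo5. With the replicate block 248 genes were called, and Fmo5 (-1.04) was not, at an adjusted p of 0.0668, and the block changed no other call among the 4 members. Rescaling without the 10 most abundant genes called 615. Leaving out 1 library gave 101 to 781 calls, log2 fold changes of -1.01 to -0.80 for Fmo2, -1.21 to -0.92 for Fmo5 and -0.061 to 0.10 for Fmo1. Without both control replicate 1 and cadmium replicate 2 Fmo2 was at -0.78. The lowest count came without cadmium replicate 3, where both calls were lost. Fmo1 turned negative after quantile normalization (-0.076), trimmed mean scaling (-0.10), upper quartile scaling (-0.050) and rescaling (-0.026), with voom (-0.17) and in the deposited log2 table (-0.16), with adjusted p of at least 0.467. The shift of Fmo1 minus Fmo4 was -0.36, and -0.54 with a pseudocount of 0.1 and -0.57 in the deposited log2 values. That of Fmo2 minus Fmo4 was -1.27, against -1.61 and -1.65. A pseudocount of 1 compresses the low values of Fmo4. With 3 libraries per group no exact permutation test could go below p = 0.10.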
